A study of Mus musculus with 9 samples.

Results

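Acta2, Actg2, Tagln, Cnn1, Cnn2, Myl9, Tpm1, Tpm2, Vcl and Thbs1 encode actins, actin-binding and myosin-associated proteins, an adhesion protein and a secreted matrix protein, and all 10 are known targets of serum response factor (SRF). They are 10 of the 19938 genes measured on 9 Affymetrix arrays of mouse embryonic stem cells, each read from the brightest probe set that carries its symbol alone. They were chosen by name and on values measured here, their log2 levels and differences in earlier results of these arrays: Acta2 and Thbs1 had been seen to be lower with the first of the hairpins against Apela when arrays of equal replicate number were compared. Values of that hairpin against the control are therefore a description of these genes: no p is given for them, and counts past a threshold are printed only as counts. Differences with the second hairpin were among the earlier results too, so its p-values for these genes are not independent of their choice.

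All arrays came from the mouse embryonic stem cell line R1E, grown without drug treatment in medium with 15% serum and with leukemia inhibitory factor at 1000 units/ml, and all cells had been transduced with a lentivirus. Control cells carried shLuc, a short hairpin RNA against luciferase. The others carried shApela #1 or shApela #2, which target Apela, the gene of a secreted peptide ligand of the apelin receptor. Each of the 3 groups had 3 arrays, numbered 1 to 3. Whether the arrays of a group stand for separate cultures is not stated, so p-values measure the spread between these arrays, which may be technical. A knockdown leaves part of the target RNA, and neither the hairpin sequences nor the time after transduction are given in the sources used here.

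SRF binds a motif called the CArG box. Its partners decide the output: myocardin-related transcription factors (MRTFs), which are freed when actin monomers are used up in filaments, drive cytoskeletal and contractile genes, while ternary complex factors (TCFs) downstream of ERK drive immediate early genes such as Fos. Serum is a classical stimulus of both branches. In smooth muscle the contractile genes are held high by the coactivator myocardin, and many of them are also transcribed at lower levels in cultured cells that adhere and spread.

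Promoters are shown for the members whose sequence bears on this motif. Of the 10 members, 7 matched an entry of the RefSeq promoter table (build GRCm38.p6), and Actg2, Tagln and Thbs1 did not. The 250 bases before the annotated start were searched for the CArG box, which reads alike on both strands. Cnn2, Myl9 and Vcl held an exact match, 3 of 7, against 1.47% of the 32851 promoters in the table. With 1 mismatch allowed, Acta2 and Tpm1 matched as well, 5 of 7 against 18.6% of all promoters. Counted by gene, the shares were 1.62% and 21.1% of 27025 genes. Matches were not particular to the members. Of 27 further SRF targets 8 held an exact match, and 51.9% matched with 1 mismatch allowed. Those shares were 7.14% and 57.1% for immediate early targets, and 11.8% and 58.8% for cardiac and skeletal muscle markers. Cnn1 and Tpm2 held neither in this window. A match is a string of letters and was not tested as a binding site. The exact matches are in capitals for Myl9 at chr2:156775214-156775463 (+ strand), Cnn2 at chr10:79988350-79988599 (+ strand) and Vcl at chr14:20929148-20929397 (+ strand), and for Acta2 at chr19:34255374-34255623 (- strand) the capitals mark both matches with 1 mismatch. Each is written 5′ to 3′ on the strand of its gene and ends at the base before the start.
Acta2: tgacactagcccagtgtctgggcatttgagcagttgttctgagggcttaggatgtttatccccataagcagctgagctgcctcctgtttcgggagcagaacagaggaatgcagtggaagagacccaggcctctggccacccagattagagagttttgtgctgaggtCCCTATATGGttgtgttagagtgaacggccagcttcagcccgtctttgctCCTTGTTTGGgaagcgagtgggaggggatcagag
Myl9: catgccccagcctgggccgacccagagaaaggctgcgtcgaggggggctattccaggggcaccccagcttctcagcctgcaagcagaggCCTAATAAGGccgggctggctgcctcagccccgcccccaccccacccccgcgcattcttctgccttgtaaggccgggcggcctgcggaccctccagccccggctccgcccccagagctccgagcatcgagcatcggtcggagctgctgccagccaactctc
Cnn2: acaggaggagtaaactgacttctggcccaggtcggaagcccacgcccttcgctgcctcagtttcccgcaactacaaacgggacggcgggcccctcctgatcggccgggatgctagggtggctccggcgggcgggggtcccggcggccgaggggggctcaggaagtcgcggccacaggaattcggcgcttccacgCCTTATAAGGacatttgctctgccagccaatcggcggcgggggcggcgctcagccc
Vcl: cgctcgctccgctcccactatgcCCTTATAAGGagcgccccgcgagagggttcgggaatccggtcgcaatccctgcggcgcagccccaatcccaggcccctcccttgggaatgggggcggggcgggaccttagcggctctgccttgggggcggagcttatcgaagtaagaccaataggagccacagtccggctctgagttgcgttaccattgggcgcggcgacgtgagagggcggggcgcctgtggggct
The Acta2 matches, CCCTATATGG and CCTTGTTTGG, begin 84 and 34 bases before the start. The match in Myl9 (CCTAATAAGG) begins 161 bases before it, that of Cnn2 56 bases before it and that of Vcl 227 bases before it, and the last pair are the same string, CCTTATAAGG.

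The target of the hairpins behaved as labelled: Apela measured 11.19 to 11.40 on the shLuc arrays and 9.56 to 9.79 on the 6 knockdown arrays, in normalized log2 units. Array 3 of shApela #2 stood apart, with a median of 7.12 over all probe sets against 7.03 to 7.07 on the other 8 and a first principal component (47.3% of the variance) of its own. Markers of embryonic stem cells were all at or above the median probe set of the table, 7.06 (14 of 14). Of 16 markers of mature smooth muscle 11 lay below it, among them the smooth muscle myosin Myh11, Lmod1, Synpo2 and Kcnmb1, as did Myocd, the gene of myocardin. The other 5 markers (Smtn, Des, Synm, Sncg and Npnt) lay at or above it, as did 10646 of all 19938 genes. The samples are therefore described by their label, as an embryonic stem cell line, and not as smooth muscle. The median probe set is not a limit of detection, and which cells of a culture transcribed the contractile genes was not tested.

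Acta2, the smooth muscle alpha-actin, spread most of the 10. It measured 9.06, 9.56 and 8.95 on shLuc arrays 1 to 3. On the shApela #1 arrays it measured 8.54, 9.02 and 8.003, and on the shApela #2 arrays 8.78, 8.88 and 8.28. Array 2 was the highest and array 3 the lowest in every group, so the shApela #1 and shLuc arrays overlapped, while all 3 shApela #2 arrays lay below all 3 controls. Set against the control array of equal number, shApela #1 was lower by 0.52, 0.54 and 0.95 and shApela #2 by 0.29, 0.68 and 0.68. The group difference was -0.67 for shApela #1, or 62.7% of the control level, and -0.55 for shApela #2, or 68.3%. Its standard error (SE) was 0.27 in the fit by group and 0.11 once the replicate number entered that fit as a block. The shApela #2 difference did not pass the test (limma, adjusted p = 0.68, and, as a description only, 0.225 with the block). Without array 3 of shApela #2 it was -0.37 (limma, adjusted p = 0.929). Without shLuc array 2 it was -0.36, and without shApela #1 array 3 the shApela #1 difference was -0.41. In bulk RNA, fewer cells that transcribe a gene and less RNA per cell cannot be told apart.

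The other smooth muscle actin and transgelin moved less. Actg2, the gamma-actin of enteric smooth muscle, was the dimmest member and the only one of the 10 below the median probe set. It measured 5.83, 5.74 and 5.76 in shLuc, 5.64, 5.82 and 5.78 in shApela #1, and 5.85, 5.83 and 5.89 in shApela #2. The shApela #2 arrays lay above all controls, by 0.08 on average (SE 0.05, limma, adjusted p = 0.68). After a second quantile normalization that difference was 0.03 (limma, adjusted p = 0.925). Tagln, which encodes the actin-binding protein SM22-alpha, measured 7.85, 7.97 and 7.98 in shLuc and 7.81, 7.95 and 7.59 in shApela #1. Its shApela #2 arrays, at 7.71, 7.69 and 7.79, all lay below the controls. The difference was -0.20 (SE 0.08, 95% interval from -0.40 to -0.01, limma, adjusted p = 0.68). Tagln was the only one of the 10 that had an unadjusted p under 0.05 with shApela #2, as 5.77% of all genes had.

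The calponins, which bind actin and restrain myosin activity, had the largest share of their variance between groups among the 10. Cnn1, the form typical of smooth muscle, measured 7.67, 7.68 and 7.73 in shLuc and 7.36, 7.32 and 7.33 in shApela #1. In shApela #2 it measured 7.61, 7.59 and 7.74. Cnn2, the form found in many cell types, measured 10.50, 10.55 and 10.54 in shLuc, 10.26, 10.20 and 10.11 in shApela #1, and 10.55, 10.54 and 10.50 in shApela #2. Both genes were thus lower on all 3 shApela #1 arrays, by 0.35 and 0.34 on average (78.2% and 79.0% of control), while their shApela #2 arrays lay among or near the controls. For shApela #2 the differences were -0.05 (95% interval from -0.15 to 0.06, limma, adjusted p = 0.747) in Cnn1 and 0.00 (from -0.10 to 0.10, adjusted p = 0.999) in Cnn2. Whether the hairpins differ from each other was not tested, since the shApela #1 arrays had a part in the choice of genes.

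Myl9, the regulatory light chain of myosin that is phosphorylated to start contraction, was lower with both hairpins at every array number. It measured 8.26, 8.45 and 8.84 in shLuc, 7.75, 8.07 and 8.16 in shApela #1, and 8.09, 8.08 and 8.42 in shApela #2. Array 3 was the highest of each group, the reverse of Acta2. All shApela #1 arrays lay below all controls (-0.53, or 69.4% of control), while shApela #2 overlapped them (-0.32, SE 0.16, limma, adjusted p = 0.68). Without shLuc array 3 the shApela #2 difference was -0.16 (limma, adjusted p = 0.78).

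Tpm1 and Tpm2 encode tropomyosins, which lie along actin filaments and control access of myosin. Tpm1 measured 10.10, 10.22 and 10.14 in shLuc, 10.11, 10.10 and 9.996 in shApela #1, and 10.06, 10.10 and 9.98 in shApela #2. Its differences, -0.08 and -0.11 (SE 0.05), were close to the spread of a group (SD 0.06 in each). Tpm2 measured 7.60, 7.77 and 7.56 in shLuc, 7.53, 7.54 and 7.34 in shApela #1, and 7.76, 7.62 and 7.37 in shApela #2. The shApela #1 arrays lay below all controls (-0.17), while 2 of the shApela #2 arrays lay among them and 1 below (-0.06, SE 0.10). Without shLuc array 2 or shApela #1 array 3 the shApela #1 difference was -0.11. Neither tropomyosin passed with shApela #2 (limma, adjusted p = 0.68 and 0.846).

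Vcl and Thbs1 stand outside the contractile filament. Vcl encodes vinculin, which ties integrin adhesions to actin, and measured 10.06, 10.13 and 10.03 in shLuc, 10.03, 10.03 and 9.90 in shApela #1, and 10.09, 10.05 and 9.92 in shApela #2. It had the narrowest range of the 10, 0.23 over all arrays, and its differences were -0.09 and -0.05 (SE 0.06). Thbs1 encodes thrombospondin 1, a secreted matrix glycoprotein that can activate latent TGF-beta. It measured 8.82, 9.06 and 8.56 in shLuc, 8.53, 8.60 and 8.06 in shApela #1, and 8.60, 8.67 and 8.24 in shApela #2. Array 3 was again the lowest and array 2 the highest in each group, and the arrays of both hairpins overlapped the controls. Within numbers, shApela #1 lay below its control by 0.28, 0.46 and 0.50 and shApela #2 by 0.21, 0.39 and 0.32. The mean differences were -0.41 (75.1% of control) and -0.31 (80.8%), with an SE of 0.18 that became 0.05 with the block. With shApela #2, Thbs1 had adjusted p = 0.68 by group in limma and, as a description only, 0.206 with the block, and Vcl had 0.765 by group. Without array 3 of shApela #2, the shApela #2 difference of Thbs1 was -0.17 (limma, adjusted p = 0.931) and that of Vcl -0.00 (adjusted p = 1). That of Thbs1 was -0.18 without shLuc array 2, and its shApela #1 difference was -0.24 without shApela #1 array 3.

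**Figure D1:**
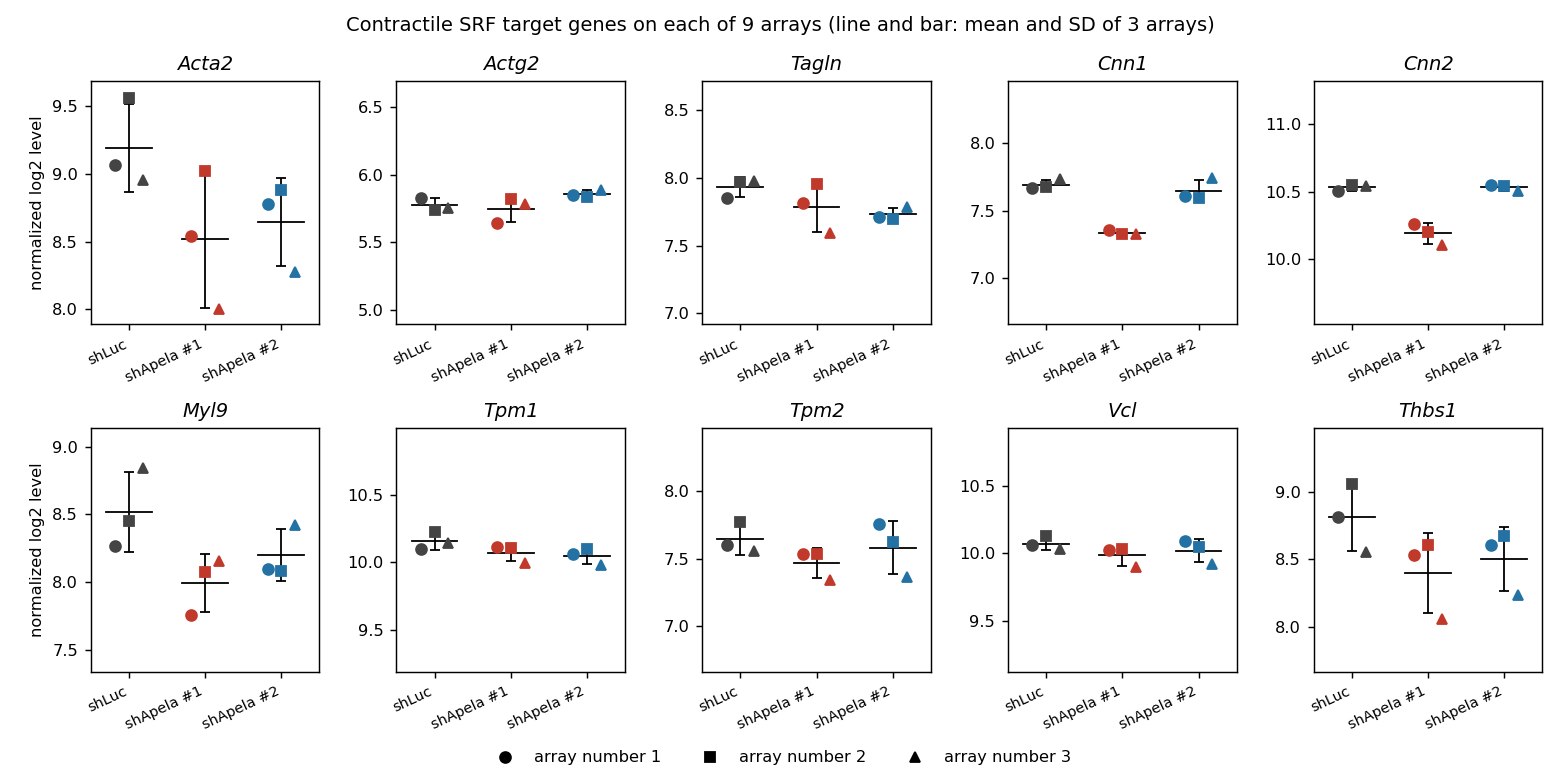
Normalized log2 level of each gene (vertical axis, the same span of 1.8 units in every panel) by group; symbols are single arrays by number, lines and bars the mean and SD of 3 arrays. For Cnn1 and Cnn2 all shApela #1 arrays lie below all shLuc arrays, while in Acta2 and Thbs1 the array numbers spread as far as the groups.

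Read as a set, all 10 members had a lower mean with shApela #1 than with shLuc, where 45.5% of all genes did. Their median difference was -0.26, beside 0.01 over all genes. The groups did not overlap for 5 of them (Cnn1, Cnn2, Myl9, Tpm2 and Vcl, the last only by 10.0297 on shApela #1 array 2 against 10.0298 on shLuc array 3), where 5.61% of all genes lay entirely below the controls and 8.05% entirely above, and 8 were lower at all 3 array numbers (all but Actg2 and Tpm1), where 16.1% of all genes were. In the fit by group Cnn1 and Cnn2 were past the threshold, 2 members beside 0.336% of all genes called, 0.196% lower and 0.14% higher. Both ended without any single shLuc or shApela #1 array, or without shApela #2 array 1 or 2, and held without array 3 of shApela #2. Cnn1 was also lost with an intensity trend and robust prior, and Cnn2 with only the compared arrays in the fit. With the replicate number as a block Acta2, Myl9 and Thbs1 joined them, 5 members beside 0.597% called lower and 0.953% called in either direction. These counts come from the contrast that led to the choice of genes and support nothing: that of the block restates what the choice was based on.

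With shApela #2, 8 of the 10 had a lower mean, where 42.4% of all genes did, and the median difference was -0.08, beside 0.02 over all genes and -0.02 over those at or above the median probe set. This comparison shares its control arrays with the first. By limma 0 of the 10 passed the threshold, by group or, as a description only, with the block. Of all genes 0.015% passed by group (3 genes, and 1151 at an unadjusted p under 0.05) and 0.0401% with the block. Acta2 and Tagln lay entirely below the controls, where 4.65% of all genes did, and Actg2 lay entirely above, where 5.68% did. At all 3 array numbers 5 were lower (Acta2, Tagln, Myl9, Tpm1 and Thbs1), against 13.6% of all genes. The intervals leave room for sizeable changes in the spread genes: for Acta2 the 95% interval ran from -1.16 to 0.06, for Thbs1 from -0.72 to 0.10 and for Myl9 from -0.70 to 0.05.

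**Figure D2:**
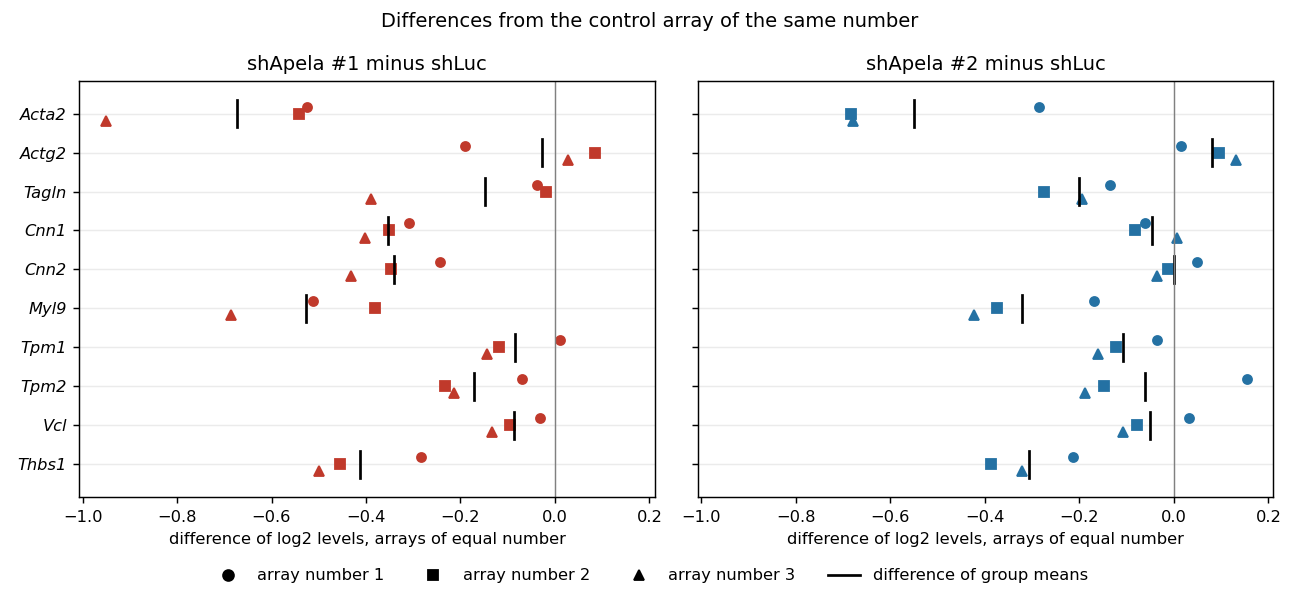
Difference of log2 levels between each hairpin array and the shLuc array of the same number (horizontal axis), for the 10 genes; symbols are the 3 numbers and black ticks the difference of group means. For Acta2, Myl9 and Thbs1 all symbols lie left of 0 in both panels, and for Cnn1 and Cnn2 they lie left of -0.2 in the shApela #1 panel.

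The members differed in how much of their spread went with the replicate number. Over all 9 arrays it held 57.4% of the variance of Thbs1, 48.6% of that of Acta2 and 60.2% of that of Vcl, but 4.56% of that of Actg2 and 9.70% of that of Tagln. In Cnn1 and Cnn2 it held 3.20% and 2.24%, where the group held 93.4% and 94.1%. The median over the 10, 38.1%, was near the 34.5% over all genes at or above the median probe set. In a fit of group and number, the number term (limma's moderated F test) was past the threshold for Thbs1, Acta2 and Myl9, 3 of the 10, where it was for 4.74% of all genes. Such calls were more common among the 10646 genes at or above the median probe set, where 9 members lie: 1513 passed when only those were fitted. The members were chosen with their levels on these arrays and the blocked fits known, Acta2 and Thbs1 for differences within numbers. Their count is therefore a description and no p is given for it. The mean of Acta2 was 8.79 on arrays numbered 1, 9.16 on those numbered 2 and 8.41 on those numbered 3, and that of Thbs1 8.65, 8.78 and 8.28. Myl9 went the other way, at 8.04, 8.20 and 8.47. Tpm2 (7.63, 7.64 and 7.42) and Vcl (10.06, 10.07 and 9.95) were low on number 3 and not past the threshold. At an unadjusted p under 0.05 these 5 were counted, where 19.9% of all genes were.

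All 3 remained past the threshold without array 3 of shApela #2, which stood apart, and without shApela #2 array 1. Acta2 was not past it without shLuc array 2 or 3, any shApela #1 array or shApela #2 array 2. Thbs1 was not past it without shLuc array 2 or 3, shApela #1 array 1 or shApela #2 array 2. Myl9 was not past it without any shLuc array, shApela #1 array 1 or 3 or shApela #2 array 2, nor with array medians centred. The 946 genes called over the whole table fell to 0 without shLuc array 2 or 3, to 1 without shApela #2 array 2 and to 2 without shApela #1 array 1. What the number stands for is not stated in the labels, and the test took it to mean the same in all 3 groups.

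**Figure D3:**
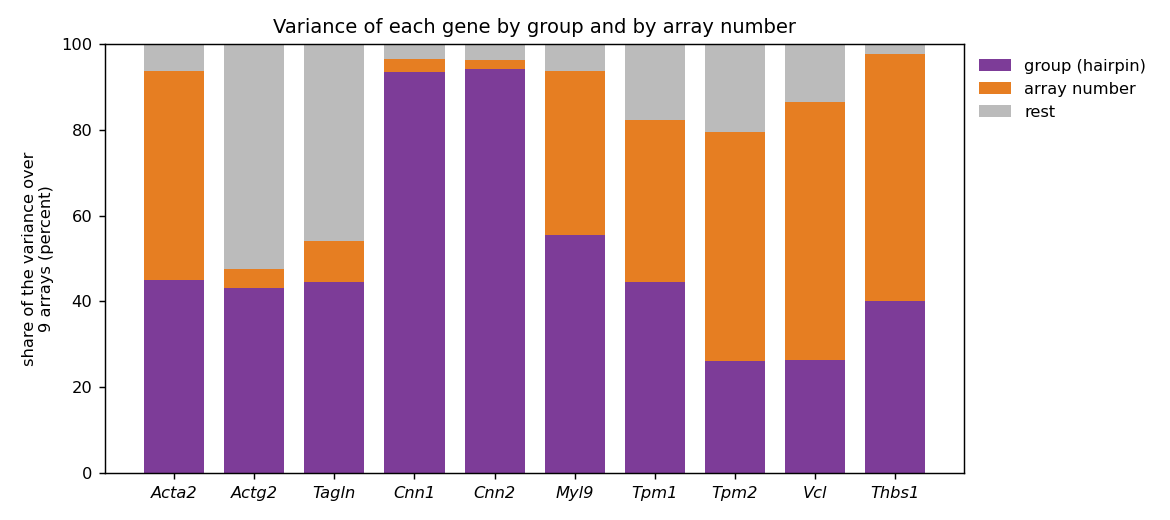
Share of the variance of each gene over 9 arrays, in percent, that lies between groups, between array numbers, and in the rest. Cnn1 and Cnn2 are almost all group (93.4% and 94.1%), while the number holds 57.4% of Thbs1 and 60.2% of Vcl.

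Among immediate early genes, the other branch of SRF output, some differed by array number in the same sense as Acta2 and Thbs1. Their list of 18 genes had a median of -0.18 for number 3 minus the mean of numbers 1 and 2. That median was 0.03 over all genes and 0.002 over those at or above the median probe set. Of the 18, 4 passed the number test, where 4.74% of all genes did. These 4, named after their values were seen, were all lowest on number 3. Fos, a transcription factor subunit induced within minutes of serum, measured 8.74, 9.22 and 7.76 in shLuc, 8.44, 8.44 and 7.55 in shApela #1, and 8.62, 8.98 and 7.61 in shApela #2 (limma's F test, adjusted p = 0.011). The phosphatase gene Dusp1 (adjusted p = 0.0145), the transcription factor gene Klf6 (0.0197) and the survival gene Mcl1 (0.0496) followed, with number 3 lower by 0.43, 0.52 and 0.19. Of the 32 measured regulators and cytoskeletal targets of SRF outside the members, 3 passed: Tuft1 (lower on number 3 by 0.48, adjusted p = 0.0237), the matricellular gene Ccn2 (by 0.36, 0.0352) and the actin-binding Lima1 (by 0.25, 0.0418). Calls were more common among brighter genes, and 15 of the 18 and 28 of the 32 lie at or above the median probe set. When only such genes were fitted, 9 immediate early and 6 cytoskeletal genes passed, beside 1513 of 10646 genes. Leaving out single arrays gave 0 to 6 of the immediate early genes and 0 to 3 of the cytoskeletal ones, with 0 immediate early genes without shLuc array 2 or 3, shApela #1 array 1 or shApela #2 array 2. Leaving out shLuc array 1 also gave 0 of the cytoskeletal ones, as those 4 did. Calls by number were not confined to SRF targets. The test was passed by 3 of 24 Hippo, YAP and thrombospondin genes, 2 of 14 embryonic stem cell markers and 2 of 17 markers of differentiated lineages. It was passed by 1 of 23 adhesion genes and 0 of 16 smooth muscle markers. Over all lists 16 of 209 genes passed.

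**Figure D4:**
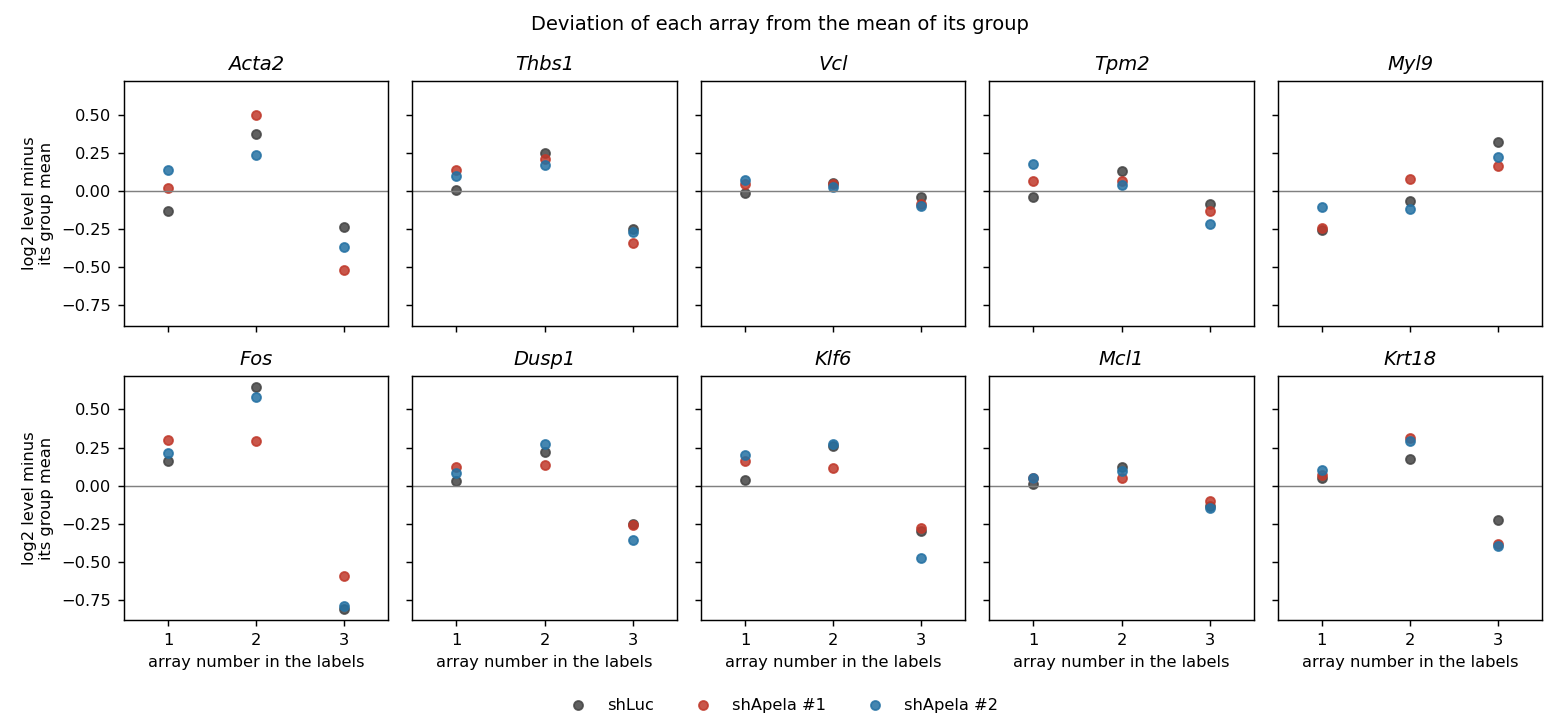
Log2 level of each array minus the mean of its group (vertical axis) by array number (horizontal axis), for 5 members in the upper row and, in the lower row, 4 immediate early genes and Krt18; colours are groups. Number 3 is lowest in every group for Acta2, Thbs1, Vcl, Tpm2, Fos, Dusp1, Klf6, Mcl1 and Krt18, and highest for Myl9. The genes shown were picked for differences by number already seen, so their likeness follows from that choice.

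Among themselves the members are described as a core (Acta2, Thbs1, Vcl, Tpm1 and Tpm2), grouped after their values were seen, and several genes apart from it. Over the 9 arrays Acta2 and Thbs1 correlated at a Pearson r of 0.96, Vcl and Tpm2 at 0.97, Vcl and Thbs1 at 0.94 and Acta2 and Tpm1 at 0.90. Since arrays share their group and number, and Acta2 and Thbs1 had been noted for a shared pattern on them, these values are descriptions. With group means removed, they were 0.94, 0.98, 0.93 and 0.88. Other pairs of the core were lower on levels, with 0.74 for Tpm1 and Tpm2, 0.82 for Acta2 and Tpm2 and 0.83 for Tpm1 and Vcl. Cnn1 and Cnn2 correlated at 0.93 on levels but at -0.07 within groups, so their likeness lay between the groups. Myl9 was set against the core within groups (-0.70 with Thbs1 and -0.65 with Vcl). Over all 45 pairs the median r was 0.37 on levels and 0.31 within groups, beside 0.07 and 0.09 over all pairs of genes at or above the median probe set. On levels 39 of the 45 were above 0, beside 3.10e+07 of those 5.67e+07 pairs. Within groups 25 of the 45 were, beside 3.11e+07, so the share above 0 was there close to that of all such pairs.

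**Figure D5:**
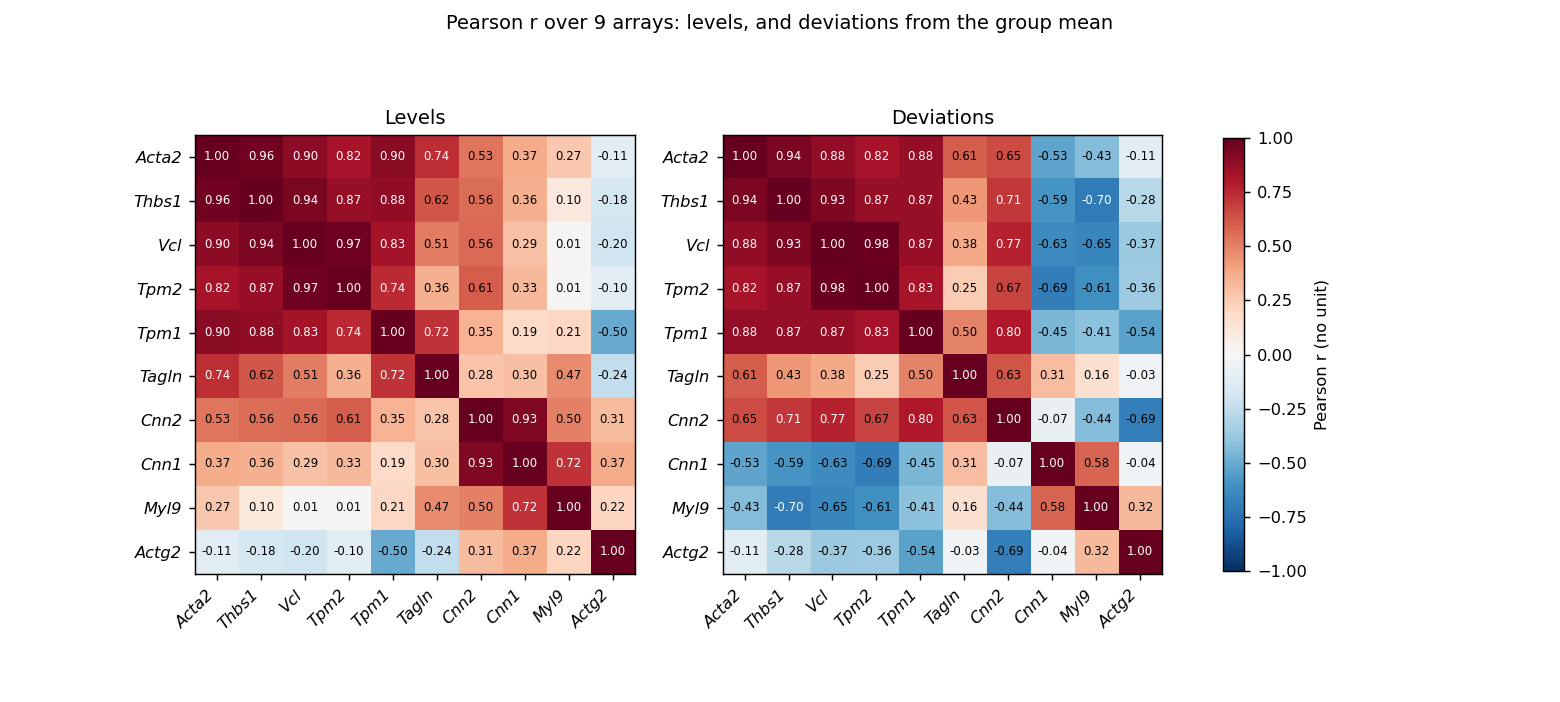
Pearson r between members over 9 arrays, for log2 levels (left) and for deviations from the group mean (right), from -1 (blue) to 1 (red). Acta2, Thbs1, Vcl, Tpm2 and Tpm1 are alike in both panels, and the likeness of Cnn1 and Cnn2 falls from 0.93 to -0.07.

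Genes most like Acta2 across the 9 arrays were sought among genes at or above the median probe set. The 8 nearest outside the members were Ptges (r 0.94), Cald1 (0.93), Ctdspl (0.93), Plekhg2 (0.93), Sh3bp1 (0.92), Krt18 (0.92), Nfkb2 (0.92) and Aebp2 (0.92). For Thbs1 they were Cald1 (0.98), Nfkb2 (0.97), Ptges (0.96), Atf7 (0.96), Krt18 (0.95), Ctdspl (0.95), Aebp2 (0.94) and Usp2 (0.93). Cald1 encodes caldesmon, an actin- and myosin-binding protein of smooth muscle and other cells, and belonged to the list of further SRF targets. It measured 8.50, 8.58 and 8.42 in shLuc, 8.42, 8.41 and 8.19 in shApela #1, and 8.42, 8.49 and 8.26 in shApela #2. Its differences, -0.16 (SE 0.08) and -0.11, did not pass (limma, adjusted p = 0.766 and 0.689), nor did its number term (0.059). Among genes at or above the median probe set, Thbs1 ranked first in likeness to Acta2, ahead of Ptges. Tpm1 ranked 15, Vcl 16, Tpm2 91, Tagln 258, Cnn2 1441, Cnn1 2724 and Myl9 3532. Actg2 had an r of -0.11. Acta2 and Thbs1 had both been noted for differences within numbers on these arrays, so their likeness was partly set by that choice.

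Neither Srf nor the MRTF genes passed the test with either hairpin. Srf measured 9.44 to 9.59 over the 9 arrays, with differences of -0.08 and -0.03 (limma, adjusted p = 0.75 and 0.787), and Actb, the cytoplasmic beta-actin that is itself an SRF target, 13.14 to 13.19. Mrtfa (0.04 and -0.06) and Mrtfb (-0.03 and -0.08) were likewise uncalled (adjusted p from 0.68 to 1). In the list of 32 regulators and cytoskeletal targets 0 passed with either hairpin in limma. At an unadjusted p under 0.05 there were 5 with shApela #1 and 1 with shApela #2. With shApela #2 5.77% of all genes had such a p, and with shApela #1 that share was not counted. Unadjusted counts of shApela #1 here and below therefore have no background, and no enrichment can be read from them. A lower mean was seen in 22 of the 32 with shApela #1 and in 23 with shApela #2, where 45.5% and 42.4% of all genes had one. The medians were -0.03 and -0.02, beside 0.01 and -0.02 over genes at or above the median probe set, where 28 of the 32 lie. The genes of that list with the smallest p were Actc1, the cardiac alpha-actin, at -0.23 with shApela #1 (adjusted p = 0.18), and Pdlim7, an actin-associated scaffold, at -0.16 with shApela #2 (adjusted p = 0.68). Of 18 immediate early targets 0 passed (2 and 1 unadjusted), with medians of -0.04 and -0.04. Elk3, a ternary complex factor, stood at 0.29 with shApela #1 (adjusted p = 0.197), and Egr1 at 0.30 with shApela #2 (adjusted p = 0.68).

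Integrin and adhesion partners of vinculin (23 genes) and the Hippo, YAP and thrombospondin list (24 genes) had 0 calls by group in limma (2 and 1, and 4 and 3, unadjusted). The integrin gene Itgb5 stood at 0.33 with shApela #1 (adjusted p = 0.272, and 0.0325 with the block), and Itgb1, the beta1 integrin, at -0.11 with shApela #2 (adjusted p = 0.68). Tead4, a partner of YAP, stood at 0.29 with shApela #1 (adjusted p = 0.356), and Lats2, a kinase that restrains YAP, at -0.20 with shApela #2 (adjusted p = 0.68).

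Markers of other cell types were followed beside the members. The mean level of the 16 smooth muscle markers was 6.68 to 6.69 on shLuc arrays, 6.68 to 6.70 on shApela #1 and 6.69 to 6.75 on shApela #2, and 0 passed with either hairpin in limma (0 and 0 unadjusted). Those with the smallest p were Sncg at 0.18 with shApela #1 (limma, adjusted p = 0.727) and Kcnmb1 at 0.10 with shApela #2 (adjusted p = 0.68). Of 20 fibroblast feeder markers 11 lay below the median probe set, among them Dcn, Lum, Postn and Prrx1. The other 9 lay at or above it, among them Col1a1, Col1a2, Thy1 and Pdgfrb, as did 10646 of all 19938 genes. The mean of the feeder markers was 6.71 to 6.79 in shLuc, 6.69 to 6.78 in shApela #1 and 6.76 to 6.90 in shApela #2, with 0 calls by limma (1 and 1 unadjusted). Col3a1 stood at 0.22 with shApela #2 (adjusted p = 0.68) and Loxl1 at -0.11 with shApela #1 (adjusted p = 0.642). Of 18 cardiac and skeletal muscle markers 14 lay below the median probe set and 0 passed in limma (1 and 1 unadjusted). Their mean was 6.59 to 6.62 in shLuc, 6.602 to 6.608 in shApela #1 and 6.62 to 6.79 in shApela #2, with Myl4 at -0.23 with shApela #1 (adjusted p = 0.402) and Tnnc1 at 0.17 with shApela #2 (adjusted p = 0.68).

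The 17 measured markers of differentiated lineages had a mean of 7.25 to 7.30 in shLuc, 7.08 to 7.21 in shApela #1 and 7.24 to 7.34 in shApela #2. Of the 17, 15 had a lower mean with shApela #1 and 7 with shApela #2, where 45.5% and 42.4% of all genes did. By group 0 passed with either hairpin (5 and 1 unadjusted), and Dab2 (-0.34) and Fgf5 (-0.47) had the smallest p with shApela #1 (limma, adjusted p = 0.117 each). The share of all genes at an unadjusted p under 0.05 with shApela #1 was not counted. Krt18 measured 9.17, 9.29 and 8.89 in shLuc, 8.73, 8.98 and 8.28 in shApela #1, and 9.02, 9.21 and 8.52 in shApela #2. Its difference was -0.46 with shApela #1 (adjusted p = 0.706, and 0.0308 with the block), and its number term passed (adjusted p = 0.0139). Krt8, its partner, stood at -0.49 (adjusted p = 0.335, and 0.0263 with the block), with a number term of 0.0336. These were the 2 of 17 genes of the list past the threshold of the number test. The list had a median of -0.00 for number 3 minus the mean of numbers 1 and 2, and Krt7 stood at -0.10 there (adjusted p = 0.708). In the same list Sox17, Foxa2, Mixl1, Kdr, Hand1, Cdx2, Krt7 and Nes lay below the median probe set. Of the 14 embryonic stem cell markers 0 passed by group (limma, 2 and 0 unadjusted), and their mean was 11.35 to 11.38 in shLuc, 11.30 to 11.31 in shApela #1 and 11.30 to 11.40 in shApela #2. Lin28a stood at -0.44 with shApela #1 (adjusted p = 0.064, and 0.0119 with the block) and Fgf4 at 0.16 (adjusted p = 0.628). The part of any of these cell types in the levels of the 10 genes was not tested.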

How the data were processed

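The authors deposited 1 table of normalized log2 expression values for 28853 probe sets on 9 arrays, made with RMA in Partek 6.6 per the submitters' processing notes. Base 2 was inferred from their range, and scanner intensities were not used here. RMA's quantile step is meant to make array distributions alike, so a change shared by most genes would not show. The deposited distributions were not fully alike: array 3 of shApela #2 had an interquartile range of 3.29, against 3.50 to 3.59 on the others. GEO's platform annotation gave 21775 probe sets 1 symbol, and the brightest such probe set stood for each of 19938 genes. Every member had 1.

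Genes were fitted in R 4.3.3 with limma 3.58.1 (lmFit, eBayes, two-sided) over all 9 arrays, and p-values were Benjamini-Hochberg adjusted over all genes with a threshold of 0.05. A second fit added the replicate number, tested with limma's moderated F test. The scripts were tested on simulated data. Deviations of arrays of equal number correlated by 0.44, 0.40 and 0.68 between shLuc and shApela #1, which was taken as pairing from the data, and by -0.01, 0.67 and 0.47 between shLuc and shApela #2, which was not. Between the hairpins the values were 0.18, 0.21 and 0.21. Blocked and within-number values of shApela #2 are therefore descriptions. The number test and the blocked fit of shApela #1 also took 1 number effect as common to all 9 arrays, those of shApela #2 included. Their p-values rest on that assumption, which these correlations bear out only in part. Precision is limited by the number of arrays.

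The members, 10 gene lists, alternatives and tests were chosen with earlier results of these data known. The genes of 1 list are not reported here. Named are all members, Apela, up to 4 called genes of each list or else the 2 with the smallest p, the 8 genes most like Acta2 and Thbs1, and genes said to be chosen later. Promoters are from RefSeq, GRCm38.p6.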

Additional observations from a re-analysis of the deposited data

How the results depend on the processing

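In every alternative run the differences of the members moved by less than the spread between replicates, or stayed uncalled. This held for 169 of 169 values with shApela #1 and 169 of 169 with shApela #2. These counts do not measure stability, since the rule could hardly fail. Leaving out a single array can hardly move a group mean past that spread, and the block leaves every difference unchanged. A difference not called in the full fit can stay uncalled while its size changes. The sign differed from the full fit in 2 of the shApela #1 values and 7 of the shApela #2 values, all in Actg2, Cnn2 or Tpm2. The median over the members lay between -0.29 and -0.18 for shApela #1 and between -0.13 and -0.06 for shApela #2 when single arrays were left out. Leaving out single arrays moved the difference of Acta2 with shApela #1 between -0.92 and -0.41 and that of Thbs1 between -0.54 and -0.24.

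Counts over all genes varied with the setting. For shApela #1 the 67 genes became 190 with the replicate number as a block, 37 with an intensity trend and robust prior, 31 with centred medians, 688 with array weights (whose estimation stopped before convergence), 44 with only the compared arrays, and 3 to 146 without single arrays. Of the 67, 28 were higher and 39 lower, against 29 and 70 after a second quantile normalization. For shApela #2 the 3 genes, all lower, became 8 with the block, 7 (1 higher, 6 lower) after the second quantile normalization, 23 with array weights and 2 to 6 without single arrays. The 2 list genes called with shApela #1 became 6 with the block, 11 with array weights and 0 to 4 without single arrays, and the 0 of shApela #2 became 1 with array weights. For the replicate number, 946 genes became 1496 with the intensity trend, 1513 without dim genes, 1845 after the second quantile normalization, 571 with centred medians, 1804 with array weights and 0 to 2231 without single arrays. The cause of these shifts was not tested. The block ended no call of a member or list gene named in the text.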
